A study of Danio rerio with 11 samples.

Results

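Gene expression in wild-type (WT) zebrafish eyes at 5 days post fertilization (dpf) was compared with that in WT eyes at 72 hours post fertilization (hpf). Each stage was 1 library of pooled eyes, so the comparison used 2 of the 11 libraries of the series, chosen by their labelled stage and genotype. Of 29387 genes with values, the 12515 with a cRPKM of at least 5 and at least 20 counts in the higher of the 2 libraries are described. The cRPKM is the authors' value per gene, scaled for gene length and library depth. The change of a gene is the log2 ratio of its cRPKM at 5 dpf over that at 72 hpf, with 1 added to each value, which understates the change of genes with low values. With 1 library per stage there is no replicate, so no test was made, and every statement compares these 2 libraries.

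The series examined the splicing regulator srrm3, whose eMIC domain drives the inclusion of short neuronal exons. Eyes came from larvae with a mutated eMIC domain and from their WT siblings, at 4 stages from 48 hpf to 5 dpf. The other libraries were from WT heads at 24 hpf and, with 2 replicates, from retinae of WT adults. All fish were raised on a light and dark cycle, and the clock time of collection is not given in the labels. No larva received a treatment. The 72 hpf WT eyes came from WT siblings of mutants that were identified by fin clip, with 20 to 60 eyes pooled per genotype. The 5 dpf WT eyes were 20 pooled eyes, extracted with a different RNA kit and labelled as a stranded polyA library. In the comparison of 5 dpf with 72 hpf, the effects of stage and of library set therefore cannot be told apart. The same 2 stages of the mutant siblings form a pair that shares no library with the WT pair but has the same change of library set, and its values are given beside the WT values.

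Between these stages the larval zebrafish eye comes into use. Photoreceptors extend outer segments, the stacked membranes that hold opsin, and form ribbon synapses onto bipolar and horizontal cells, while most of the central retina has left the cell cycle and new cells are added at the ciliary margin. In the lens, fibre cells fill with crystallins, and the pigment epithelium behind the retina makes melanin and recycles the retinal chromophore. A whole eye holds all of these tissues, with cornea and some attached surface cells, so that fewer cells of a type and less RNA per cell cannot be told apart in any result below.

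The 72 hpf WT library had 37724575 counts and the 5 dpf WT library 72300388, and the 11 libraries lay between 37724575 and 92560511. The 20 most abundant genes took 11.9% of the counts at 72 hpf and 18.4% at 5 dpf. Markers of the labelled tissue were present in both libraries: at 5 dpf the cone transducin gene GNAT2 stood at 2649 cRPKM, the lens crystallin gene CRYAA at 470.3 and the pigment gene DCT at 126. The srrm3 transcript was at 1.26 cRPKM at 72 hpf and 4.15 at 5 dpf in WT eyes, and at 2.64 and 3.30 in mutant eyes. Its level does not separate the genotypes, and the mutation alters a protein domain, so transcript levels are no check of the labels.

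Most genes differed by less than 2-fold between the stages, and the genes of photoreceptors, their synapses and the lens stood at the high end of the ratios. Of the 12515 genes, 1406 (11.2%) were at least 2-fold higher at 5 dpf and 2073 (16.6%) at least 2-fold lower. The other 9036 (72.2%) lay within 2-fold. Larger ratios were more often higher than lower: 453 genes were at least 4-fold higher against 282 lower, and 33 at least 16-fold higher against 26 lower. The median log2 ratio of all genes described was −0.26, with 25th and 75th percentiles of −0.77 and 0.36. On the deposited scale the typical gene was thus slightly lower at 5 dpf. The median was −0.043 with counts scaled by TMM factors and −0.037 with median-ratio size factors, so this offset depends on the scaling. List medians of the WT pair below are to be read against −0.26, not against 0, and list counts against 11.2% higher and 16.6% lower. For the mutant pair the same 12515 genes had a median of −0.077, with 7.96% at least 2-fold higher and 4.59% lower. After centring on the WT median, 1928 genes were higher by 2-fold or more and 1228 were lower by as much. The share of higher genes among those past 2-fold was then 61.1% against 40.4% as deposited. It was 56% with counts scaled by TMM factors and 56.3% with median-ratio size factors.

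**Figure D1:**
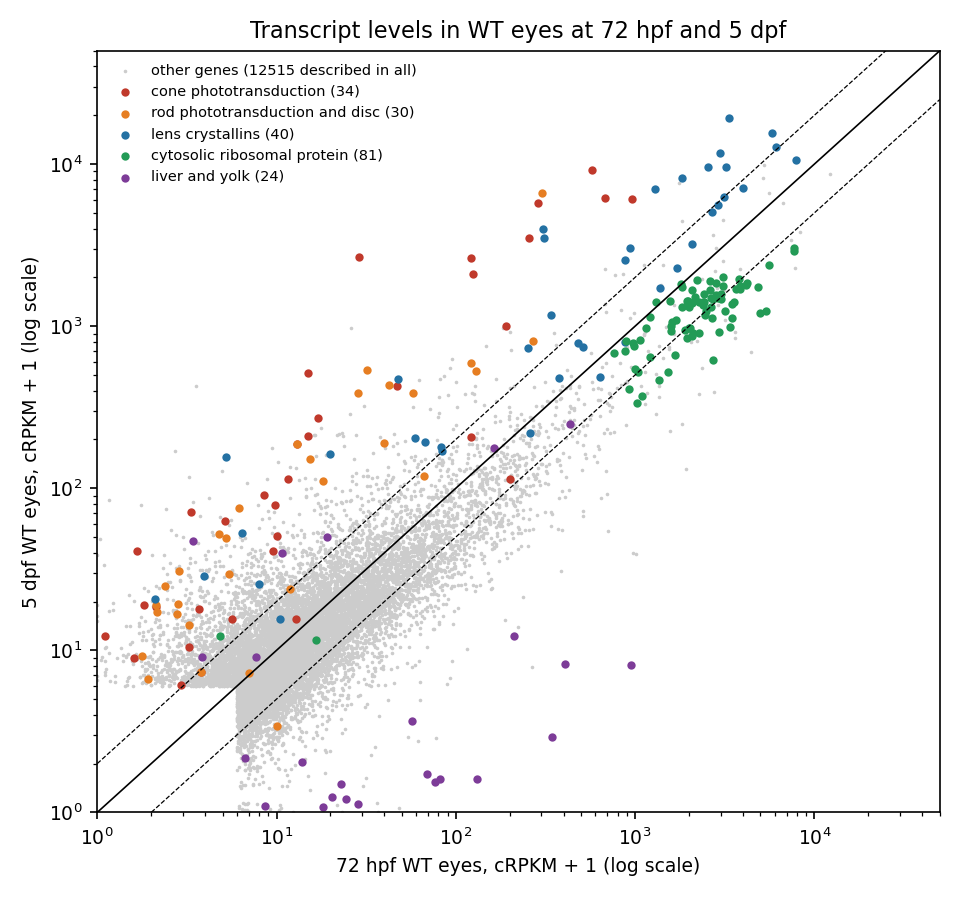
Each point is 1 of 12515 genes, with its cRPKM plus 1 in the 72 hpf WT library on the x axis and in the 5 dpf WT library on the y axis, both on log scales; the solid line marks equal values and the dashed lines 2-fold. Cone, rod and most crystallin genes lie above the lines, ribosomal protein genes lie in a tight group below equality, and 17 of 24 liver and yolk genes lie at least 2-fold below it.

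Cone phototransduction genes had the highest median log2 ratio of the 40 gene lists examined, except that with a pseudocount of 0.1 a list of 2 described pancreas genes stood higher, at 4.36 against 3.53. Cones are the photoreceptors for colour and bright light. Of 34 cone genes described out of 38 found in the files, 30 were at least 2-fold higher at 5 dpf and 0 lower, against 11.2% and 16.6% of all genes. Their median was 3.25, which is 3.50 above that of all genes, and the mutant pair had 1.11 with 18 higher. They made up 0.463% of all counts at 72 hpf and 5.65% at 5 dpf.

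The cone opsins, the light-absorbing proteins, differed widely in level. The ultraviolet opsin gene OPN1SW stood at 0.200 cRPKM in WT eyes at 48 hpf, 526 at 60 hpf, 574 at 72 hpf and 9133 at 5 dpf, a log2 ratio of 3.99 between 72 hpf and 5 dpf. The blue opsin gene opn1sw2 went from 256 to 3499.9 cRPKM and the red opsin gene opn1lw2 from 960.3 to 6117, with log2 ratios of 3.77 and 2.67. The green opsin gene opn1mw1 went from 286 to 5761, with a log2 ratio of 4.33. On this per-length scale OPN1SW was the highest of the cone opsins at 5 dpf, whereas at 72 hpf opn1lw2 was. The remaining tandem copies were far lower at 5 dpf. opn1mw2 went from 10.6 to 112 cRPKM and opn1lw1 from 0.110 to 11.3, the latter from 4 to 815 counts, while opn1mw3 and opn1mw4 reached 0.410 and 0.0600 cRPKM and fell short of the filter. In adult retinae these 4 copies stood at 279.9 to 2656 cRPKM, and opn1mw1, the main green copy at 5 dpf, at 125 and 249. The copies are close in sequence, so their single values are uncertain. The summed level of the 8 cone opsin genes was 4.78, 1723 and 2087 cRPKM at 48, 60 and 72 hpf, 24635 at 5 dpf, and 12755 and 12597 in the adult retinae. The mutant siblings, at 1959.8 at 72 hpf, had 3857 at 5 dpf, so WT eyes at 5 dpf were the highest of these libraries.

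The cone cascade downstream of the opsins was higher as well, with a few members that stayed level. GNAT2, the alpha subunit of cone transducin, went from 120.2 to 2649 cRPKM (log2 ratio 4.45), and gnb3b, a transducin beta subunit, from 124 to 2102 cRPKM (log2 ratio 4.07). Its paralog GNB3 went the other way, from 198 to 114 cRPKM (log2 ratio −0.80), and was lower again in the adult retinae, at 35.2 and 46.0. The phosphodiesterase that closes the cascade had the widest ratios: its catalytic subunit gene PDE6C went from 14.0 to 513 cRPKM (log2 ratio 5.10) and its inhibitory subunit gene pde6ha from 27.9 to 2679 cRPKM (log2 ratio 6.54), a 96.1-fold ratio of levels. At 5 dpf pde6ha was at 82.8 in mutant eyes, and it was the highest of the named cone genes in the adult retinae, at 36619 and 39076. Shut-off genes were also higher: the arrestin gene ARR3 ENSDARG00000056511 went from 189 to 998 cRPKM (log2 ratio 2.39) and the opsin kinase gene GRK7 ENSDARG00000020602 from 16.1 to 272 cRPKM (log2 ratio 4.0). The guanylate cyclase activator gene guca1c had a log2 ratio of 4.42 from 2.34 cRPKM at 72 hpf, but its relative GUCA1A ENSDARG00000100747 only from 11.9 to 14.6 cRPKM (log2 ratio 0.28). The cone genes under 2-fold in either direction were thus GNB3, this GUCA1A gene, GNGT2 ENSDARG00000010680 (log2 ratio 0.76) and RGS9 ENSDARG00000045156 (0.95).

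Rod genes were also higher at 5 dpf. Rods serve dim light and hold their photopigment in closed discs. Of 30 rod phototransduction and disc genes described, 26 were at least 2-fold higher and 1 was at least 2-fold lower, with a median log2 ratio of 2.67. In the mutant pair the median of the same genes was 0.20, with 7 at least 2-fold higher; the list's range over the alternatives for the WT pair was 2.08 to 3.27.

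Rod transducin and its effector followed. GNAT1, the rod transducin alpha subunit, went from 41.2 to 435 cRPKM (log2 ratio 3.37), and the phosphodiesterase genes PDE6B ENSDARG00000000380 and PDE6G from 3.79 to 51.5 and from 38.7 to 190.0. Disc rim genes, whose products shape the outer segment membrane, were among the widest. PRPH2 ENSDARG00000014840 went from 30.9 to 533 cRPKM (log2 ratio 4.07) and ROM1 from 14.3 to 150.3 cRPKM (log2 ratio 3.31). The mutant pair had 1.49 for this PRPH2 gene and 0.15 for ROM1. In the adult retinae they stood at 491 and 516 cRPKM for PRPH2 and at 1072 and 1303 for ROM1. The rod arrestin gene sagb went from 120.3 to 588 cRPKM (log2 ratio 2.28) and the opsin kinase gene GRK1 from 4.25 to 48.2 cRPKM (log2 ratio 3.23). A smaller ratio was seen for gnb1b, a transducin beta subunit made in many cells (65.6 and 118 cRPKM, log2 ratio 0.84). The disc gene prph2la was level at 6.03 and 6.24.

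**Figure D2:**
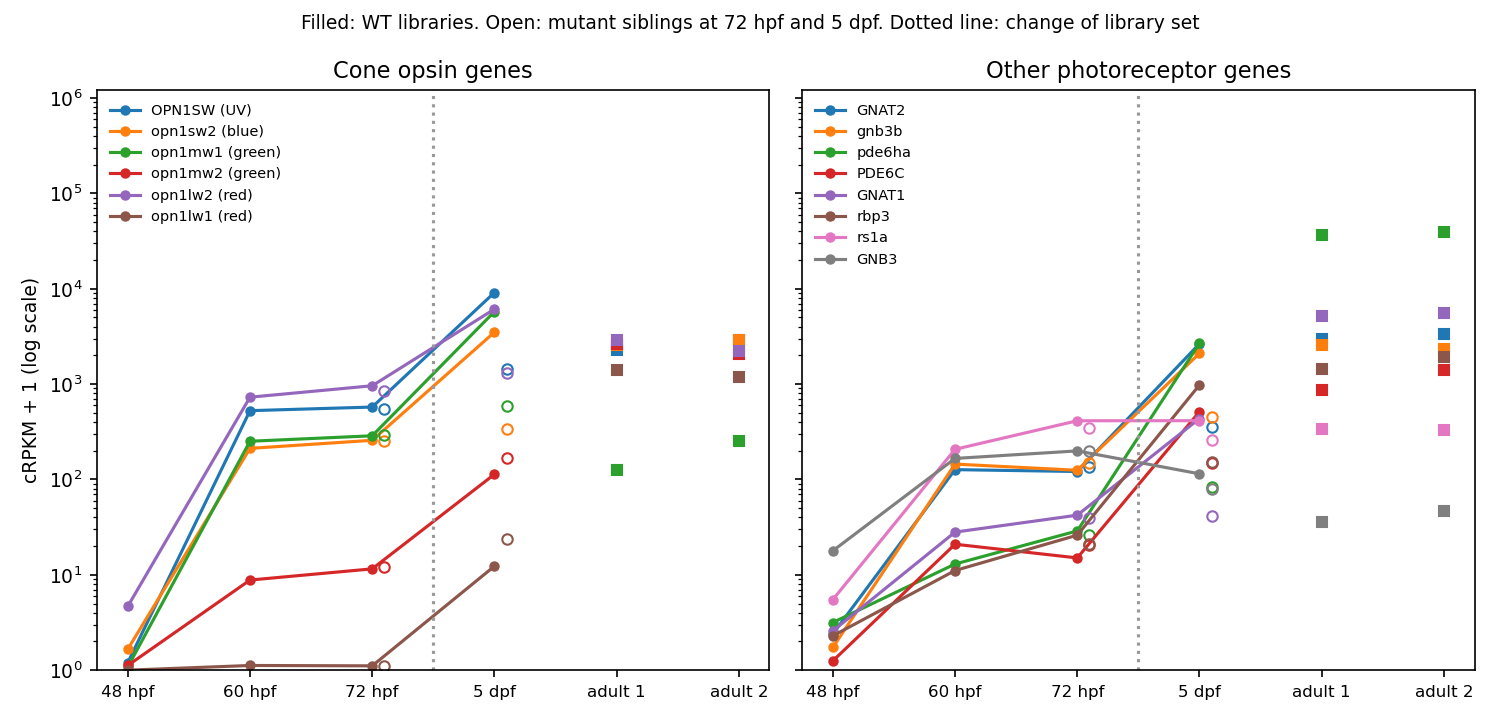
The cRPKM plus 1 of cone opsin genes (left) and other photoreceptor genes (right) is plotted on a log scale for WT libraries from 48 hpf to 5 dpf (lines) and for 2 adult retina libraries (squares), with the mutant siblings at 72 hpf and 5 dpf as open circles and the change of library set as a dotted line. OPN1SW, GNAT2 and pde6ha are higher at 5 dpf than at 72 hpf in WT eyes, rs1a is level and GNB3 is lower; the open circles at 5 dpf lie below the WT points for most genes and above them for opn1mw2 and opn1lw1.

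Genes of outer segment structure and transport were higher in part. Of 52 described, 24 were at least 2-fold higher and 0 lower, with a median of 0.85 and of 0.17 in the mutant pair. The highest were genes of the matrix around the outer segments: rbp3, which carries retinoids between photoreceptors and pigment epithelium, went from 25.1 to 979 cRPKM (log2 ratio 5.23), and the matrix proteoglycan gene impg1a from 2.44 to 81.8 cRPKM (log2 ratio 4.59). The lipid elongase gene ELOVL4 ENSDARG00000027495 differed less, from 80.1 to 128 cRPKM (log2 ratio 0.67), and the small GTPase gene ARL3 ENSDARG00000056794, which sends lipidated proteins to the outer segment, stood at 6.06 and 2.72.

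Ribbon synapse genes were higher in 25 of 34 cases by at least 2-fold, with 0 lower and a median of 1.75; the mutant pair had 0.70 and 9 higher. Photoreceptor terminals release glutamate continuously from vesicles held on a ribbon. The vesicular glutamate transporter gene SLC17A7 ENSDARG00000090106 went from 3.55 to 39.9 cRPKM (log2 ratio 3.17) and the synaptotagmin gene syt5a from 9.18 to 144 cRPKM (log2 ratio 3.83). The fusion gene SNAP25 ENSDARG00000058117 went from 122 to 386 cRPKM (log2 ratio 1.65). In contrast, the retinoschisin gene rs1a, whose secreted product coats photoreceptors, had 4.49, 206, 412 and 412 cRPKM at the 4 WT stages, so it was level between 72 hpf and 5 dpf. The dystroglycan gene DAG1 was the lowest of the list, at −0.35.

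Transcription factors of photoreceptors differed less than the phototransduction genes. Of 29 described, 8 were at least 2-fold higher and 1 lower, with a median of 0.52; in the mutant pair 0 were higher, 2 lower and the median was 0.13. The homeobox gene crx ENSDARG00000011989, needed for photoreceptor differentiation, went from 141 to 230.4 cRPKM (log2 ratio 0.71). The rod factor genes NR2E3 and nrl went from 22.1 to 38.5 and from 3.28 to 9.95, with log2 ratios of 0.77 and 1.36. The homeobox gene six7, required in zebrafish for green and blue cone opsin expression, had the highest ratio, from 17.6 to 62.0 cRPKM (log2 ratio 1.76). OTX2, an early factor of photoreceptor and pigment cell fate, and its paralog otx2a were lower, at −0.60 and −1.18.

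Light-sensing outside the image-forming cascade was also represented. Of 11 non-visual opsin genes described, out of 27 found, 7 were at least 2-fold higher and 0 lower (median 1.94, 0.74 with no filter, mutant pair 0.94). The melanopsin gene OPN4 ENSDARG00000007553 went from 5.27 to 49.4 cRPKM (log2 ratio 3.01) and opn6b from 2.2 to 28.1 cRPKM (log2 ratio 3.19). RGR, a retinal photoisomerase of pigment epithelium and Müller glia, was level at 102 and 94.4. Only the described genes are counted, and those below the filter in both libraries are not.

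Seen over the whole series, the genes at least 4-fold higher at 5 dpf were in part already higher at 60 than at 48 hpf. The 453 genes had a median cRPKM of 0.630, 2.64 and 2.75 in WT eyes at 48, 60 and 72 hpf and of 27.8 at 5 dpf, which the choice of genes sets in part. Of them, 216 were at least 2-fold higher at 60 than at 48 hpf and 9 lower, with no filter on the levels at these stages. Among the 11526 genes that passed the filter in the 48 and 60 hpf WT libraries, 7.11% were higher and 4.69% lower. In the libraries the choice did not use, the median of the 453 genes was 3.13 and 14.3 in mutant eyes at 72 hpf and 5 dpf. It was 37.5 and 47.7 in the adult retinae, where 369 of 453 stood at 5 cRPKM or more in both. The 282 genes at least 4-fold lower had medians of 35, 20 and 34 cRPKM in WT eyes at 48, 60 and 72 hpf. At 5 dpf their median was 4.30 in WT eyes and 10.2 in mutant eyes. In WT eyes 101 of them were at least 2-fold lower at 60 than at 48 hpf and 10 higher, again with no filter at these stages. Of the 282 genes, 113 were below 1 cRPKM in both adult retinae and 70 at 5 or more. Across all 12515 genes, 740 and 7971 met those limits.

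The mutant pair gave fewer genes past 2-fold. In it, 1198 of 12912 genes (9.28%) were at least 2-fold higher at 5 dpf and 567 (4.39%) lower. Of the genes at least 2-fold higher, 650 were shared with the WT pair, 46.2% of the WT genes and 54.3% of the mutant genes. Of the genes at least 2-fold lower, 540 were shared, 26.0% of the WT genes and 95.2% of the mutant genes. The pairs share no library, but both cross the same change of kit and library type, and a difference between them was not tested. Of all genes described in the WT pair, 19 were at least 2-fold in opposite directions in the pairs, 18 of them lower in WT and higher in mutant eyes.

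**Figure D3:**
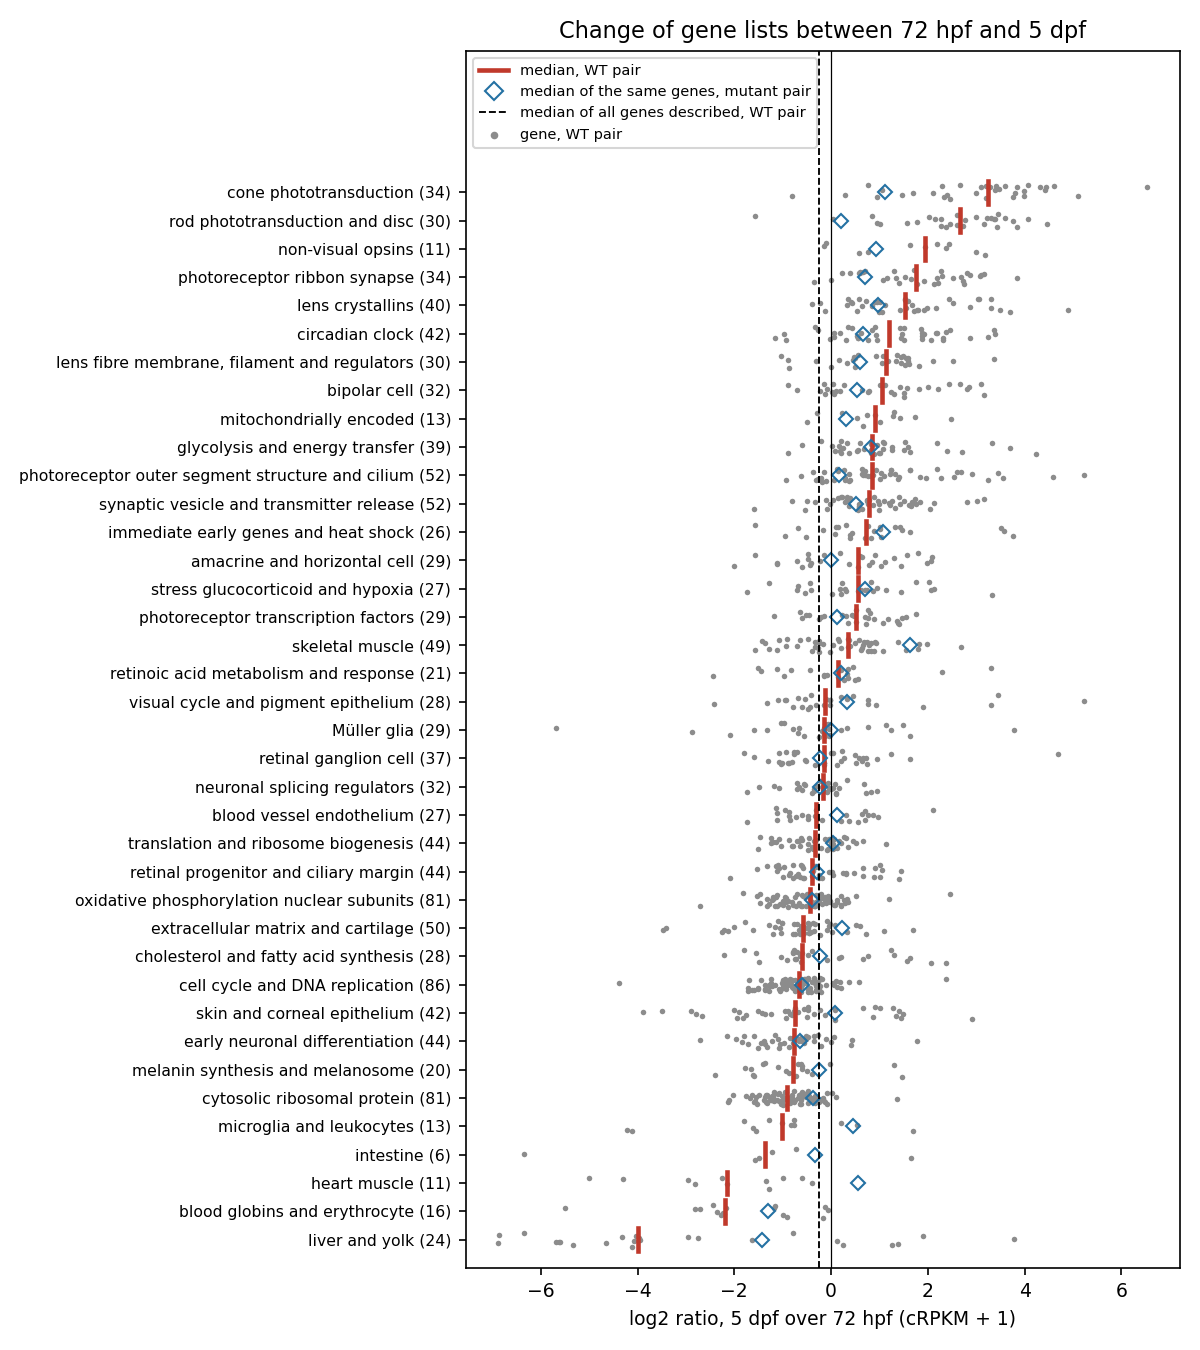
Each grey point is the log2 ratio of 1 gene between 5 dpf and 72 hpf in WT eyes (x axis), grouped by gene list with the number of genes described in parentheses; lists with at least 3 described genes are shown, red bars are list medians, blue diamonds the medians of the same genes in the mutant pair, and the dashed line the median of all genes (−0.26). Lists run from cone phototransduction at 3.25 to liver and yolk at −4.0, and the diamonds lie farthest from their bars for the heart muscle, liver and yolk, rod and cone lists.

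Among inner retinal neurons, bipolar cell genes were higher and ganglion cell genes were mixed. Bipolar cells carry photoreceptor signals to the inner retina. Of 32 bipolar cell genes, 17 were higher by at least 2-fold and 0 lower (median 1.06, mutant pair 0.53). The calcium-binding protein gene cabp5b went from 2.29 to 27.3 cRPKM (log2 ratio 3.11) and the exchanger gene SLC24A3 from 3.89 to 42.6 cRPKM (log2 ratio 3.16), whereas the homeobox factor genes VSX1 and IRX5, which mark bipolar fate, stood at −0.70 and −0.88. Amacrine and horizontal cell genes had 9 higher and 4 lower of 29, with a median of 0.57 that was 0.18 with the mutant 72 hpf library in place of the WT one and 0.23 with no filter. In the mutant pair 5 were higher and 4 lower, with a median of −0.0049. Transmitter genes of these cells were at the high end: the glycine transporter gene SLC6A9 went from 11.2 to 50.8 cRPKM (log2 ratio 2.09) and the GABA-synthesizing enzyme gene GAD1 ENSDARG00000027419 from 25.4 to 110.1 cRPKM (log2 ratio 2.07). Their transcription factor genes lhx1a and NEUROD6 ENSDARG00000020794 were lower, at −1.57 and −2.0.

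Retinal ganglion cells send the axons of the optic nerve. Of 37 genes of their list, 3 were higher by at least 2-fold and 7 lower, with a median of −0.15 that turned positive after centring, with TMM factors and with median-ratio factors (range over the alternatives −0.52 to 0.11) and was −0.22 in the mutant pair. The axon growth gene gap43 went from 137 to 38.4 cRPKM (log2 ratio −1.81). The glutamate transporter gene SLC17A6 ENSDARG00000001127, found in ganglion cells, went from 13.2 to 3.74 cRPKM (log2 ratio −1.59, mutant pair −0.38). This copy stood at 0.01 and 0 cRPKM in the adult retinae. The more abundant copy SLC17A6 ENSDARG00000041150 went from 19.9 to 11.0 cRPKM (log2 ratio −0.81, mutant pair −0.55). Against these, the neurofilament gene INA ENSDARG00000011862 went from 3.97 to 127 cRPKM (log2 ratio 4.68), and the RNA-binding protein gene RBPMS2 ENSDARG00000045930 from 22.7 to 72.8 cRPKM (log2 ratio 1.64). Synaptic vesicle and transmitter release genes, which all these neurons use, had 21 of 52 at least 2-fold higher and 1 lower (median 0.77, mutant pair 0.51). The vesicle protein gene sypb went from 165 to 278 cRPKM (log2 ratio 0.75) and the neuronal sodium pump gene atp1a3b from 13.3 to 114 cRPKM (log2 ratio 3.01).

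Müller glia span the retina and clear glutamate. Their list was mixed, with 5 higher and 6 lower of 29 and a median of −0.15 that turned positive after centring and with TMM and median-ratio factors. The mutant pair had a median of −0.0056. The glutamate transporter gene SLC1A2 ENSDARG00000052138 went from 3.84 to 65.5 cRPKM (log2 ratio 3.78) and the glutamine synthetase gene GLUL ENSDARG00000099776 from 101 to 316 cRPKM (log2 ratio 1.64). The mutant pair had 1.05 for this SLC1A2 gene and 2.39 for GLUL, and which cells held either transcript was not tested. The transporter gene SLC1A3 ENSDARG00000043148 had 58.1 and 7.08 cRPKM, and at most 0.0500 in adult retinae. FABP7 ENSDARG00000007697, a lipid-binding protein gene of radial glia and progenitors, was the most abundant of the list, from 3607 to 842 cRPKM (log2 ratio −2.10), and stood at 88.7 and 50.2 in the adult retinae. apoea, an apolipoprotein E gene that this list shares with the liver and yolk list, was lowest at −5.68.

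Lens genes were higher at 5 dpf, led by the crystallins, which give the fibre cells their refractive index. Of 40 crystallin genes described, 25 were higher by at least 2-fold and 0 lower, with a median of 1.52 (mutant pair 0.97, 20 higher). They took 3.66% of all counts at 72 hpf and 11.8% at 5 dpf. The beta-crystallin gene CRYBB1 stood at 1267, 10103 and 3341 cRPKM at 48, 60 and 72 hpf and at 19102 at 5 dpf, a log2 ratio of 2.52. It was thus lower at 72 than at 60 hpf before the high value at 5 dpf. The alpha-crystallin gene CRYAA had the same order, 37.4, 160.1, 46.6 and 470.3. The widest ratio was that of CRYGN ENSDARG00000102129, from 4.25 to 155 cRPKM (log2 ratio 4.89), and crybgx went from 306 to 3968 cRPKM (log2 ratio 3.69). The gamma-crystallins of the crygm2d cluster covered the low end, with crygm2d6 from 637 to 488 cRPKM (log2 ratio −0.38) and crygm2d21 at −0.22. These copies are nearly identical, so that their single values are uncertain.

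Fibre membrane, filament and regulator genes showed smaller ratios than the crystallins, with 17 of 30 at least 2-fold higher, 1 lower and a median of 1.13 (0.58 with no filter, mutant pair 0.60). The lens water channel gene MIP ENSDARG00000013963 went from 80.4 to 468 cRPKM (log2 ratio 2.53) and the lens galectin gene GRIFIN from 29.9 to 319 cRPKM (log2 ratio 3.37). The beaded filament gene BFSP2 went from 362 to 768 cRPKM (log2 ratio 1.08). The lowest members were regulators: SOX1 ENSDARG00000069866, a crystallin regulator, stood at −0.89 and the ephrin receptor gene epha2a at −1.03.

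Clock genes were higher in large part. The circadian clock is a transcriptional loop, in which activators drive repressors that feed back, and most of its members cycle over the day, so the unknown collection times bear on each value. Of 42 described, 21 were at least 2-fold higher and 1 lower (median 1.19; mutant pair 0.66, 17 higher and 2 lower). The repressor gene NR1D1 had 0.940, 0.490, 11.8 and 132 cRPKM over the 4 WT stages, and 13.7 and 133 in mutant eyes at the last pair of stages. Both 5 dpf libraries were thus above both 72 hpf libraries by a similar factor. The output factor gene dbpb went from 2.31 to 33.6 cRPKM (log2 ratio 3.39), with 2.90 in the mutant pair, and the repressor gene BHLHE40 from 22.2 to 218 cRPKM (log2 ratio 3.24), with 2.31. NFIL3, which represses the targets that dbpb activates, had the lowest ratio, from 31.1 to 13.4 cRPKM (log2 ratio −1.15), and the light-induced gene PER2 stood at −0.94, with −1.34 in the mutant pair. Whether collection time contributed was not tested.

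Immediate early genes, which cells switch on soon after a stimulus, were listed together with heat shock genes. Of 26 genes of this joint list, 10 were at least 2-fold higher and 1, a chaperone gene, lower (median 0.73, mutant pair 1.07 with 15 higher). With no filter the median was 0.38. The widest were the activity-induced factor genes egr4, from 1.56 to 33.6 cRPKM (log2 ratio 3.76), NPAS4 ENSDARG00000055752, from 0.930 to 22.1 cRPKM (log2 ratio 3.58), and egr1, from 10.8 to 133 cRPKM (log2 ratio 3.51). In mutant eyes egr1 was 12.7 at 72 hpf and 99.4 at 5 dpf, and in the adult retinae 39.0 and 66.1. The chaperone gene hsp90aa1.1, expressed in developing muscle in zebrafish, was lowest at −1.57. The stress, glucocorticoid and hypoxia list had 7 higher and 2 lower of 27 (median 0.55, 0.12 with no filter, mutant pair 0.71), led by the glucose transporter gene SLC2A1 ENSDARG00000001437, from 6.84 to 77.5 cRPKM (log2 ratio 3.32).

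Among the genes of energy metabolism, 3 lists were examined. Glycolysis and energy transfer genes were higher, 16 of 39 by at least 2-fold with 0 lower. Their median was 0.85 in the WT pair and 0.82 in the mutant pair, where all genes described had −0.26 and −0.077. The mitochondrial creatine kinase gene CKMT2 ENSDARG00000039929, whose product passes phosphate energy to sites of use, went from 8.39 to 175 cRPKM (log2 ratio 4.23), the enolase gene ENO1 ENSDARG00000013750 from 15.3 to 211 cRPKM (log2 ratio 3.70) and the creatine kinase gene CKB ENSDARG00000043257 from 1124 to 2366 cRPKM (log2 ratio 1.07). Of the 13 genes encoded by mitochondrial DNA, 6 were at least 2-fold higher (median 0.91, mutant pair 0.30): MT-CO1 went from 5226 to 9847 cRPKM (log2 ratio 0.91), while MT-CO2 went from 12159 to 8654 cRPKM (log2 ratio −0.49). Of 81 nuclear subunits of the respiratory complexes, 18 were lower by at least 2-fold and 2 higher, where 16.6% and 11.2% of all genes were. Their median of −0.44, with −0.40 in the mutant pair, is −0.18 relative to all genes. That median is above the −0.58 of all genes in the shortest of 5 groups by implied length, where their median implied length lies. cox6b1 went from 157 to 23.3 cRPKM (log2 ratio −2.70) and COX6A1 ENSDARG00000054588 from 0.670 to 8.23 cRPKM (log2 ratio 2.47), the latter on 12 and 282 counts. Cholesterol and fatty acid synthesis genes were split, 6 higher and 5 lower of 28, with a median of −0.61 (mutant pair −0.24) that was positive when only genes at 20 cRPKM or more were kept; the cholesterol synthesis enzyme gene HSD17B7 stood at −1.81.

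Genes of dividing and newly formed cells were lower. Of 86 cell cycle and DNA replication genes, 23 were at least 2-fold lower and 1 higher, with a median of −0.67, −0.41 relative to all genes; the mutant pair had −0.60. The replication clamp gene PCNA stood at 629, 419, 395 and 163 cRPKM at 48, 60 and 72 hpf and 5 dpf, the last value being the lowest. The chromatin protein gene HMGB2 went from 1157 to 383 cRPKM (log2 ratio −1.59) and the kinetochore gene SPC25 from 31.0 to 8.72 cRPKM (log2 ratio −1.72). Ribonucleotide reductase, which makes DNA precursors, had 2 genes with the RRM2 symbol that went apart. RRM2 ENSDARG00000078069 went from 29.2 to 0.450 cRPKM (log2 ratio −4.38) on 204 and 6 counts, and RRM2 ENSDARG00000020711 from 4.77 to 28.8 cRPKM (log2 ratio 2.37) on 27 and 312. The mutant pair had the same directions, −4.28 and 2.05, and how reads were divided between these copies is not known.

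Early neuronal differentiation genes had 17 of 44 at least 2-fold lower and 1 higher, with a median of −0.76 (mutant pair −0.64, 10 lower). The tubulin gene tubb5, used by growing neurons, went from 428 to 96.1 cRPKM (log2 ratio −2.14) and stood at 25.4 and 24.4 in the adult retinae. The thymosin gene tmsb, an actin-binding protein gene of young neurons, went from 155 to 22.9 cRPKM (log2 ratio −2.71). The guidance-related gene DPYSL5 ENSDARG00000059311 was the exception, from 19.1 to 67.8 cRPKM (log2 ratio 1.77). The retinal progenitor and ciliary margin list had 5 higher and 7 lower of 44, near the 11.2% and 16.6% of all genes, with a median of −0.38 (mutant pair −0.28). Its Notch ligand gene dlb went from 24.6 to 7.84 cRPKM (log2 ratio −1.53) and its eye-field homeobox genes rx1 and PAX6 ENSDARG00000045936, which are also expressed in photoreceptors and in amacrine cells, stood at 1.4 and 1.44. Of 32 neuronal splicing regulators described, 0 were at least 2-fold higher and 4 lower, and their median of −0.17 (mutant pair −0.23) turned positive after centring and with TMM and median-ratio factors. The lowest was KHDRBS2, from 17 to 4.42 cRPKM (log2 ratio −1.73). srrm3 and its paralog srrm4, with levels below 5 cRPKM, had log2 ratios of 1.19 and 0.56, against 0.24 and −0.14 in the mutant pair.

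Ribosomal protein genes were lower nearly throughout. Of 81 described, 36 were at least 2-fold lower and 1 higher, with a median of −0.91, −0.65 relative to all genes, and of −0.38 in the mutant pair. They took 13.3% of counts at 72 hpf and 7.06% at 5 dpf. RPLP0 stood at 6937, 3385, 7643 and 2904 cRPKM over the 4 WT stages and at 2153 and 762 in the adult retinae, so 60 hpf was lower than either neighbour. RPL36 and RPL37 had the lowest ratios, −2.13 and −2.10, and RPL4 was level at 0.11. Translation factor and ribosome biogenesis genes had 1 higher and 8 lower of 44 and a median of −0.34, −0.083 relative to all genes, with 0.045 in the mutant pair.

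Implied gene length moved with the ratio. The length that follows from a gene's count and cRPKM was used to place the described genes in 5 equal groups. It can be far below the length of a transcript, with 22 bases for actc1a and 10 for HBE1 ENSDARG00000087390. The groups are therefore not groups of true gene length alone. From the shortest to the longest group the median log2 ratio was −0.58, −0.49, −0.36, −0.16 and 0.18 in the WT pair. In the mutant pair it ran from −0.22 to 0.089, and between 60 and 48 hpf, within 1 library set, from −0.039 to 0.036. The ribosomal protein and respiratory lists had median implied lengths of 654 and 738 bases, which fall in the shortest group. All genes of that group had −0.58, and −0.55 without ribosomal protein genes. The part of implied length in these lists' ratios was not tested.

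**Figure D4:**
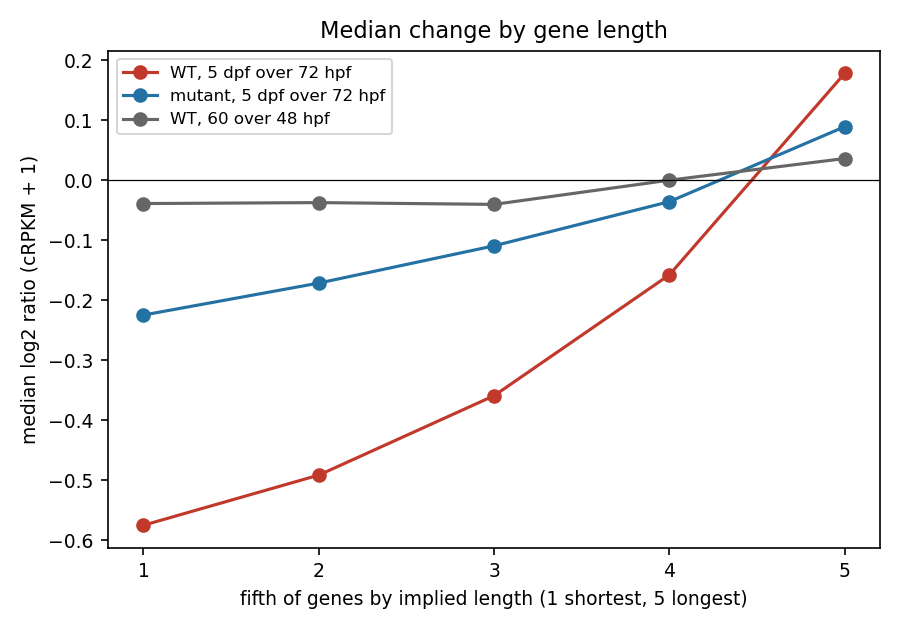
The median log2 ratio (y axis) is plotted for 5 equal groups of described genes from the shortest to the longest implied length (x axis), for the WT pair and the mutant pair of 5 dpf over 72 hpf and for WT eyes at 60 over 48 hpf. The WT pair runs from −0.58 to 0.18, a wider span than the mutant pair, and the 60 over 48 hpf line runs only from −0.039 to 0.036.

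Pigment genes were lower at 5 dpf. Of 20 melanin synthesis and melanosome genes, 8 were at least 2-fold lower and 2 higher, with a median of −0.80 (mutant pair −0.25, 4 lower). The melanin enzyme gene TYRP1 ENSDARG00000056151 stood at 179, 216, 623 and 182 cRPKM at the 4 WT stages. Its 72 hpf value was thus the highest, and the 5 dpf value was near that of 48 hpf. DCT, another enzyme of the pathway, had 154, 152, 387 and 126, and the melanosome matrix gene pmelb went from 221 to 40.9 cRPKM (log2 ratio −2.41). In mutant eyes TYRP1 was 445 and 191 and DCT 297 and 115.

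Visual cycle and pigment epithelium genes were split, 4 higher and 3 lower of 28, and their median of −0.13 was positive after centring, with TMM and median-ratio factors and with the mutant 72 hpf library in place of the WT one. The mutant pair had a median of 0.33. The highest was rbp3, described above, and RDH8 ENSDARG00000105060, which reduces the used chromophore, went from 4.46 to 58.5 cRPKM (log2 ratio 3.45). The lowest of the list was RPE65 ENSDARG00000094752, from 23.7 to 3.62 cRPKM (log2 ratio −2.42). The RPE65 symbol, that of a retinoid isomerase, is shared by several genes. Only this copy is reported here, so its ratio does not describe the isomerase as a whole. RLBP1, a retinoid carrier of Müller glia and pigment epithelium, is represented by rlbp1a, from 103 to 130.5 cRPKM (log2 ratio 0.34). Retinoic acid metabolism and response genes had 2 higher and 4 lower of 21, with a median of 0.14 (mutant pair 0.21) that was negative at a floor of 1 or 20 cRPKM and with no filter. The retinoic acid-binding gene CRABP1 ENSDARG00000035904 went from 7.41 to 0.540 cRPKM (log2 ratio −2.45).

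Surface and connective tissue genes were lower with exceptions. Skin and corneal epithelium genes had 14 lower and 7 higher of 42 (median −0.76, mutant pair 0.089). The keratin gene krt4, among the most abundant transcripts at 72 hpf, went from 7789 to 2286 cRPKM (log2 ratio −1.77), icn from 4414 to 689 cRPKM (log2 ratio −2.68) and cyt1l, another keratin-type gene, from 1928 to 130.2 cRPKM (log2 ratio −3.88), whereas the keratin gene krt97 went from 61.2 to 466 cRPKM (log2 ratio 2.91) and had 2.84 in the mutant pair. Extracellular matrix and cartilage genes had 16 lower and 2 higher of 50 (median −0.57, mutant pair 0.23). The collagen-binding gene SPARC went from 1130.1 to 330.0 cRPKM (log2 ratio −1.77), and POSTN ENSDARG00000104267, a matrix protein gene, from 267 to 55.1 cRPKM (log2 ratio −2.25). The fin-fold fibre genes and2 and and3 went from 17.6 to 0.760 and from 14.3 to 0.380 cRPKM, but in mutant eyes from 1.92 to 23.5 and from 1.22 to 7.52. KERA, the gene of the corneal proteoglycan keratocan, went from 27 to 59.3 cRPKM (log2 ratio 1.1) in WT and from 38.7 to 7.38 in mutant eyes. The hypertrophic cartilage collagen gene COL10A1 ENSDARG00000054753 was higher in both, at 1.69 and 3.12.

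Markers of tissues outside the eye were lower in WT eyes at 5 dpf, with skeletal muscle and pancreas as exceptions. Summed over its genes, the liver and yolk list stood at 5517, 1660.3, 3122 and 628 cRPKM at 48, 60 and 72 hpf and 5 dpf in WT eyes and at 1495 in mutant eyes at 5 dpf. Of 24 genes described, 17 were at least 2-fold lower and 4 higher (median −4.0, mutant pair −1.43). The median rests on the filter: it was −1.62 at a floor of 1 cRPKM and −0.79 with no filter, and −2.26 with a pseudocount of 5. Apolipoproteins carry lipid, and 2 of their genes had the lowest ratios of all genes: apoa1a stood at 954, 181, 343 and 1.93 cRPKM and apoa2 at 1450.4, 341, 946 and 7.15, with log2 ratios of −6.88 and −6.86 between 72 hpf and 5 dpf. In mutant eyes at 5 dpf apoa1a was 2.51 and apoa2 86.0. Another apolipoprotein gene, apoeb, was level at 279.8 and 322 (log2 ratio 0.20). The tyrosine breakdown gene HPD, by contrast, went from 2.43 to 46.4 cRPKM (log2 ratio 3.79).

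Blood genes had 12 of 16 at least 2-fold lower and 0 higher (median −2.18, −1.0 with no filter, mutant pair −1.30). The embryonic globin gene hbae3 went from 2762 to 393 cRPKM (log2 ratio −2.81) and hbbe3 from 47.2 to 0.0600 cRPKM (log2 ratio −5.51). For hbbe3 the ratio of deposited levels was 0.00127. Its 848 and 2 counts, scaled by library totals, gave an exact 95% interval of 0.000149 to 0.00446 that covers counting error only. Globin copies are close in sequence and uncertain singly. Microglia and leukocyte genes had 7 lower and 1 higher of 13 described out of 56 (median −1.01, −0.14 with no filter, mutant pair 0.45). The lysozyme gene lyz of neutrophils and macrophages went from 52.9 to 1.90 cRPKM (log2 ratio −4.22), with −2.51 in the mutant pair. Vessel endothelium genes had 1 higher and 4 lower of 27 (median −0.31, −0.049 relative to all genes, mutant pair 0.11). The lower share was near the 16.6% of all genes, and the higher share was below the 11.2%. The blood and vessel factor gene TAL1 stood at −1.74.

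Skeletal muscle genes had 7 higher and 6 lower of 49 in WT eyes (median 0.34), against 37 higher in the mutant pair (median 1.63). Their summed level was 13271 cRPKM at 48 hpf, 3288 at 60, 3781 at 72 hpf and 4154 at 5 dpf in WT eyes and 10945 in mutant eyes at 5 dpf. The muscle actin gene actc1b went from 487 to 814 cRPKM (log2 ratio 0.74) and the calcium buffer gene pvalb2 from 471 to 193 cRPKM (log2 ratio −1.29) in WT, and from 328 to 985 in mutant eyes. Heart muscle genes, a list added after their values were seen, were at least 2-fold lower in WT eyes in 9 of 11 cases and in 0 in mutant eyes. Their median of −2.15 in WT eyes was −1.0 with no filter and −1.25 with a pseudocount of 5. The atrial and ventricular light chain gene MYL7 stood at 77.2, 9.53, 35.4 and 0.140 cRPKM at the 4 WT stages, and at 18.1 and 51.5 in mutant eyes at 72 hpf and 5 dpf. The 5 dpf WT library was the only larval one of these 6 near 0. Pancreatic protease genes prss1 and prss59.2 were at 0.740 and 0 cRPKM at 72 hpf and 5.82 and 5.91 at 5 dpf, but at 811 and 901 in the 5 dpf mutant library. The summed level of the 35 pancreas genes was 44.5 in WT and 6955 in mutant eyes at 5 dpf. Trunk Hox genes summed to 34.1 at 72 hpf and 1.79 at 5 dpf in WT eyes. These lists bear on which tissues came with the eyes, and their part in the ratios of other genes was not tested.

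**Figure D5:**
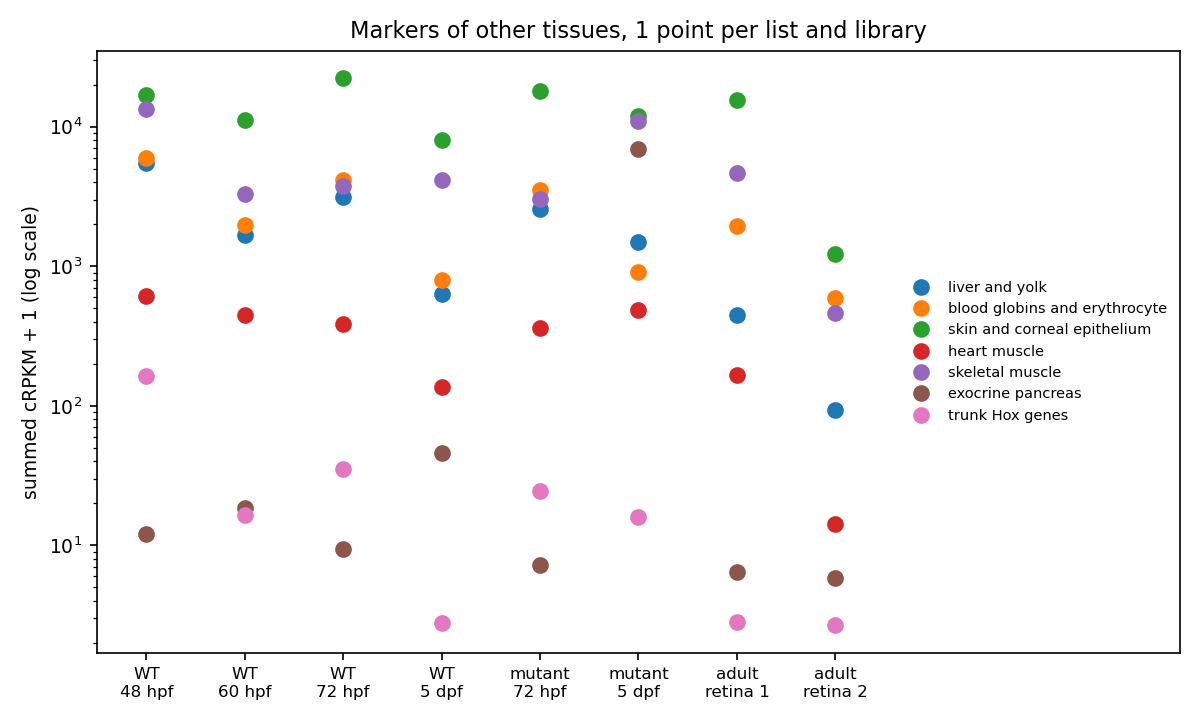
Points give the summed cRPKM plus 1, on a log scale, of 7 lists of genes from tissues outside the neural retina and lens in each of 8 libraries (x axis). Liver and yolk, blood, heart muscle and Hox sums are lower in the 5 dpf WT library than at 72 hpf, skeletal muscle is similar, and the exocrine pancreas sum is 6955 in the 5 dpf mutant library against 44.5 in its WT sibling.

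Of the genes with the 12 highest ratios among those with at least 100 counts, pde6ha, rbp3 and PDE6C belong to the photoreceptor lists above. The 12 lowest include the apolipoprotein genes apoa1a, apoa2, apoea, apoc2, apoa1b and apoa4b.1. The highest of all was zgc:193593, which went from 2.56 to 426 cRPKM (log2 ratio 6.91), and stood at 69.1 in mutant eyes at 5 dpf and 1131 and 1142 in the adult retinae. After pde6ha came CLUL1, a clusterin-like gene, from 0.170 to 83.4 cRPKM (log2 ratio 6.17), and the prion protein gene prnpa, from 1.72 to 169 cRPKM (log2 ratio 5.97). The calcium and calmodulin-dependent kinase gene camk1ga went from 0.750 to 78.1 cRPKM (log2 ratio 5.50), the RNA-binding protein gene SAMD4B from 2.25 to 117 cRPKM (log2 ratio 5.18), and the glutamate transporter gene slc1a8b from 0.0900 to 32.8 cRPKM (log2 ratio 4.95). si:dkey-97a13.12 went from 0.0300 to 47.4 cRPKM (log2 ratio 5.55), a ratio of deposited levels of 1580 that rests on the rounded value 0.0300. Its 1 and 2834 counts, scaled by library totals, gave an exact 95% interval of 265 to 58426. Of these, CLUL1, SAMD4B, camk1ga, prnpa, slc1a8b and si:dkey-97a13.12 were higher again in both adult retinae. They stood at 825, 622, 217, 210, 98.3 and 502 cRPKM in adult replicate 1.

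Of the genes described, 6 had 0 counts at 72 hpf and 5 had 0 counts at 5 dpf. zgc:153846 had 517 counts and 37.8 cRPKM at 5 dpf, at least 89.9-fold higher when 0 is read as 3 counts, and 32.9 cRPKM in the 5 dpf mutant library. It was at most 0.0800 in the adult retinae and 0 in every earlier library. The granulin-family gene grna.2 had 491 counts at 5 dpf, at least 85.4-fold higher, with 19.9 cRPKM in mutant eyes. si:ch211-181d7.2 and si:ch73-106l15.4 were at least 168-fold and 59.8-fold higher, and prss59.2 and ENSDARG00000102871 were the others. On the low side, apart from the yolk, blood and heart genes above, FABP1 ENSDARG00000059227, a fatty acid carrier gene of liver and gut, went from 131 to 0.610 cRPKM (log2 ratio −6.36), aep1 from 264 to 6.85 cRPKM (log2 ratio −5.07), and zgc:123103 from 35.7 cRPKM to 0, at least 307-fold lower.

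Genes that share a symbol, mostly duplicated copies, went apart in few cases. With 11.2% of all genes at least 2-fold higher and 16.6% at least 2-fold lower, few pairs of any genes would go both ways. The share of unrelated pairs that does so was not computed. The symbols below therefore do not show that copies go apart more often than other genes. Of 779 symbols with at least 2 genes described, 6 had 1 copy at least 2-fold higher and another at least 2-fold lower at 5 dpf. Besides RRM2 they included IMPDH1, an enzyme gene of guanine nucleotide synthesis, TNNI2, a fast muscle troponin gene, and NID1, a basement membrane gene, all chosen after their values were seen. The IMPDH1 copy ENSDARG00000042336 went from 4.78 to 42.9 cRPKM and the copy ENSDARG00000029524 from 55.4 to 23.9, with 1.45 and −1.17 as the log2 ratios of the mutant pair. In 5 of the 6 the copies had opposite signs in the mutant pair too, and in 2 by at least 2-fold in each direction.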

How the data were processed

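RNA from whole enucleated larval eyes, WT heads and adult retinae had been sequenced as polyA libraries. Per library the authors deposited a whole-number count per gene and a cRPKM, which is a kind of RPKM. The submitters' processing notes name build danRer10. The aligner, the counter, the strand setting and the correction behind the letter c are not given in the labels used here. Overlapping and antisense genes, and near-identical copies such as tandem opsins, crygm2d crystallins, globins and digestive proteases, are therefore uncertain singly. Totals were 37724575 to 92560511 counts.

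The files list 31848 Ensembl genes, of which 2461 without values were left out. A gene-name table gave 25682 (87.4%) a symbol, often in human form; a symbol shared by several genes is printed with its identifier. An implied length per gene was taken from its count, its deposited cRPKM and the library total. Between libraries these lengths differed by at most 0.0853% for 99% of genes at 5 cRPKM or more. They were used in place of gene lengths but can be far below them, down to 4 bases.

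Ratios were computed in Python 3.11.15 with numpy 2.4.6 and pandas 2.3.3, with a pseudocount of 1, a floor of 5 cRPKM and 20 counts in the higher library, and 2-fold as the limit of a described difference. The calculation was checked on simulated counts. No p-value can be given. Intervals of ratios are exact (Clopper-Pearson, 95%, scipy 1.17.1) and, like the 3-count reading of 0, cover counting error only. The 9 alternatives were pseudocounts of 0.1 and 5, floors of 1 and 20 cRPKM, no filter, 3 other scalings (centring, TMM factors from edgeR 4.0.16 in R 4.3.3, median-ratio factors) and the mutant 72 hpf library in place of the WT one.

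The comparison and the 40 gene lists (1639 genes, 1247 described) were chosen with earlier results of these data known. Named genes are the 12 highest and 12 lowest ratios among described genes with at least 100 counts, the 2 highest, 2 lowest and 2 most abundant of each list, and srrm3 and srrm4. Others were chosen after their values were seen: further cone and rod genes, CRYAA, PCNA, PER2, NR2E3, nrl, OTX2, rlbp1a, genes with 0 counts and the copies that went apart. Some genes that meet these rules are not reported here. Sequences were not used here.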

Additional observations from a re-analysis of the deposited data

Results flagged for a closer look

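The 9 results below are some of those with opposite signs in the WT and the mutant pair of 5 dpf over 72 hpf. Other lists had opposite signs too, among them skin and corneal epithelium at −0.76 and 0.089 and visual cycle at −0.13 and 0.33. With 1 library per genotype and stage, none of these differences was tested, and no reading of them is given. MYL7, the cardiac light chain gene, had log2 ratios of −4.99 in WT and 1.46 in mutant eyes, and the cardiac gene cmlc1 −4.29 and 1.35. The fin-fold genes and2 and and3 had −3.40 and 3.07, and −3.48 and 1.94. The muscle gene pvalb2 had −1.29 and 1.58, and the corneal gene KERA 1.1 and −2.24. Among list medians, heart muscle had −2.15 and 0.56, microglia and leukocytes −1.01 and 0.45, and extracellular matrix and cartilage −0.57 and 0.23. Across all genes described, 19 were at least 2-fold in opposite directions.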

How the results depend on the processing

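The count of genes at least 2-fold higher, 1406, was 647 with a floor of 20 cRPKM and 852 with a pseudocount of 5. The count at least 2-fold lower, 2073, was 1149 with a floor of 20 cRPKM, 1143 with a pseudocount of 5 and 1228 after centring. A floor of 20 leaves 4557 of the 12515 genes, so its lower counts do not mean lower shares. Under the other alternatives the counts stayed within 1.5 times, between 1261 and 1928 higher and between 1402 and 2588 lower. Of 40 lists, 19 had a positive median and 18 to 23 under the alternatives. The lists that changed sign were Müller glia, splicing regulators, ganglion cell and visual cycle under the 3 other scalings, visual cycle with the mutant 72 hpf library, retinoic acid under the other floors and with no filter, and cholesterol synthesis at a floor of 20. Sizes of list medians moved too: with no filter 17 of 40 were nearer 0 by over 1.5 times, 10 were with a floor of 1 cRPKM and 7 with a pseudocount of 5, and none was farther from 0 by as much under these 3. The no-filter medians include genes at or near 0 in both libraries. Of 220 named genes, 0 to 10 changed sign per alternative, and none of these was past 2-fold as reported. Leaving out a replicate was not possible with 1 library per stage. No paired analysis was possible because the WT stages compared have 1 library each and so share fewer than 2 replicate numbers. A fit over both genotypes, which would take the mutant pair as a replicate of the WT pair, was not made.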
